A study of Bos taurus with 14 samples.

Results

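The genes described here are the collagens, laminins and other structural genes of the extracellular matrix that the bovine array measured in muscle. A probe set was taken if its single gene symbol was a collagen chain, a laminin alpha, beta or gamma chain, or *FN1*, *NID1*, *NID2*, *DCN*, *LUM*, *BGN*, *FBN1*, *SPARC* or *POSTN*. Each gene was represented by its probe set with the highest mean over all arrays. This gave 37 genes, from 70 probe sets, among the 9155 genes that have a probe set with a single symbol. The rule itself used names and mean levels, not the difference between the groups, but it was set with earlier results of these data known.

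The study asked how muscle transcription differs between cattle finished in different production systems. Transcripts were measured in *M. longissimus dorsi* (LD), the long muscle of the back, with 1 Affymetrix Bovine array per animal. All 14 animals were Charolais × Limousin crossbred heifers, assigned at random to their system and sampled shortly after slaughter. The 7 outdoor/pasture-fed heifers grazed a ryegrass, meadow grass and white clover sward, and the 7 indoor/concentrate-fed heifers were housed and given concentrate with barley straw. The systems thus differed in feed, housing and movement together, and these cannot be told apart. Animals were kept in groups on pasture and in pens, and the labels do not give the group of each animal, so the spread between the 7 animals may hold a part shared by group mates. Values are deposited log2 expression values, in which a difference of 1 is a doubling, and each difference is outdoor/pasture-fed minus indoor/concentrate-fed.

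Muscle fibres are wrapped in a basement membrane, a thin sheet in which a network of type IV collagen and a network of laminin are joined by nidogens. Outside it lies the fibrous matrix of endomysium and perimysium, built mainly from fibrillar collagens of types I and III, with type V collagen setting fibril diameter and small proteoglycans coating the fibrils. Most fibrous matrix transcripts in muscle come from fibroblasts and fibro-adipogenic progenitors, whereas basement membrane genes are also used by the endothelium of capillaries, and the amount and cross-linking of collagen are known for their bearing on the toughness of beef.

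Of the 37 genes, 25 had a probe set that varied between the arrays, with an SD above 0.01. The other 12 were constant to an SD of 1.04e-05 or less, namely *COL2A1*, *COL4A3*, *COL4A4*, *COL6A2*, *COL9A1*, *COL10A1*, *COL11A1*, *COL13A1*, *COL17A1*, *COL18A1*, *COL26A1* and *LAMB3*. Such a flat value is what the summarisation used by the authors returns when the probes of a set do not vary together. It does not show that a gene was absent. *COL6A2*, for example, encodes a chain of type VI collagen, which muscle is known to contain. *COL4A2* had no probe set by name. The array medians lay between 6.77 and 6.84. The muscle label was checked on known transcripts of skeletal muscle fibres, whose list mean was 13.6 to 13.7 outdoors and 13.5 to 13.7 indoors, although 4 of the 10 fibre genes with a probe set were flat as well.

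None of the 37 genes passed the threshold of an adjusted p of 0.05 in limma with Benjamini-Hochberg adjustment over all 24016 probe sets, at which 0.0167% of probe sets were called. In a fit of the 9623 varying probe sets alone none passed either, beside 0.343% of those probe sets. At an unadjusted p under 0.05 the count of matrix genes was again 0, where 11.4% of all probe sets (5.35% higher and 6.07% lower outdoors) and 19.9% of varying ones lay under that value. Every one of the 25 intervals covered 0, and in none of the 25 genes did the groups separate, which they did in 0.811% of varying probe sets. The lowest adjusted p from limma was 0.46, for *NID1*. The differences ran from −0.32 for *COL21A1* to 0.28 for *LAMB1*, with 14 genes higher and 11 lower outdoors and a median of 0.02. The median over all varying probe sets was −0.0077. Within-group SDs of the 25 genes had a median of 0.29, against 0.17 over all varying probe sets. The spread between animals of a group was thus wider in the typical matrix gene than in the typical varying probe set. The matrix genes were taken by their probe set of highest mean and the background was not, and the part of that choice was not tested. The differences by role showed the fibrillar collagens on the lower side and the basement membrane genes mostly on the higher side, each within its own error.

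**Figure D1:**
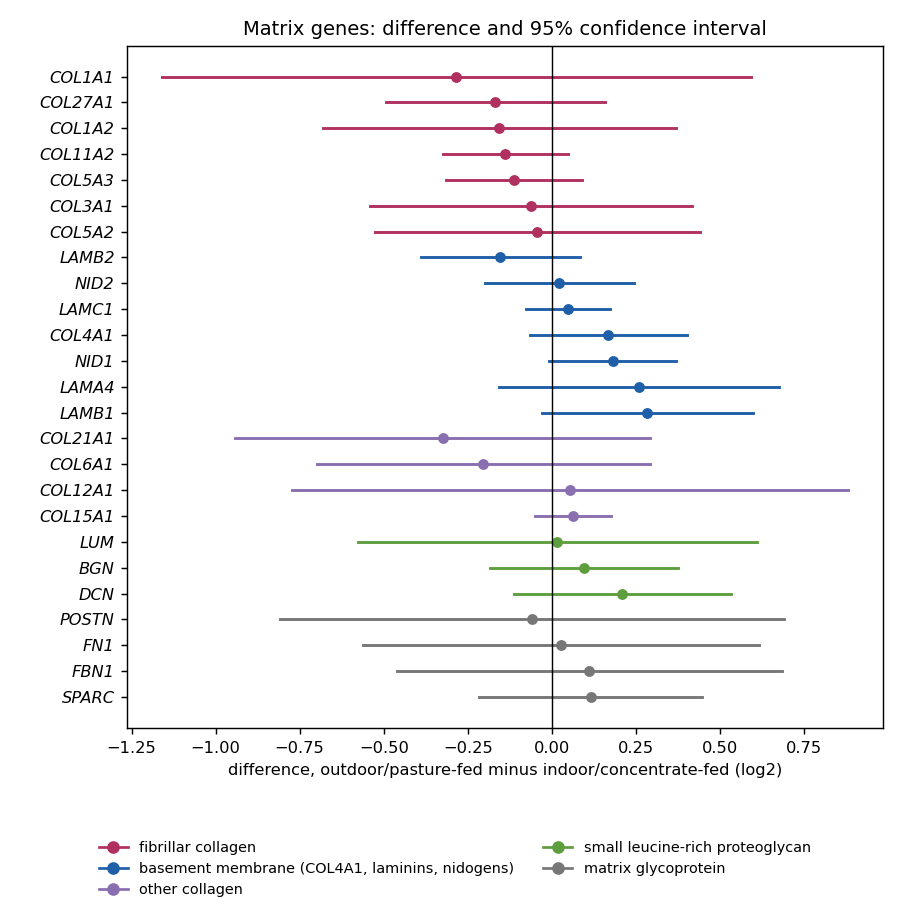
Outdoor/pasture-fed minus indoor/concentrate-fed difference (log2, x axis) of the 25 varying matrix genes (y axis), as points with bars for the 95% confidence interval of limma, coloured by role. All 25 bars cross 0, the 7 fibrillar collagens lie left of 0, and 6 of the 7 basement membrane genes lie right of it.

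A few animals set much of the spread. Outdoor/pasture-fed replicate 5 was the highest animal of its group in 20 of the 25 genes (80.0%), whereas it was highest in 29.9% of all varying probe sets. Indoor/concentrate-fed replicate 3 was highest in its group in 18 of 25 (72.0%), against 11.8% of all varying probe sets. At the low end outdoor/pasture-fed replicate 2 was lowest in 17 of 25 (68.0%), against 17.3% of all varying probe sets. The mean deviation over the 25 genes was 0.64 in outdoor/pasture-fed replicate 5, with 0.07 in the next animal of that group. In indoor/concentrate-fed replicate 3 it was 0.47, with 0.18 in the next. Within both systems most matrix genes were thus high together or low together in the same animals, but not all of them. *COL27A1* was 6.47 in outdoor/pasture-fed replicate 5, under the outdoor median of 6.55. *COL11A2* was 6.65 in indoor/concentrate-fed replicate 6, over the indoor median of 6.27, although that animal was lowest of its group in 10 of the 25 genes.

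The same animals stood out in genes of fibroblasts. Of 13 fibroblast and fibro-adipogenic progenitor markers, all with a probe set and 9 of them varying, outdoor/pasture-fed replicate 5 was highest in 8 and replicate 2 lowest in 8. Indoor/concentrate-fed replicate 3 was highest of its group in only 4 of the 9. The mean level of the list ran from 9.55 to 10.7 outdoors and from 9.55 to 10.3 indoors, and its highest animals were replicate 5 outdoors and replicate 3 indoors. In the list mean of the 6 varying muscle fibre genes these animals were the lowest of their groups, but outdoors only by little. The mean deviation was −0.018 in outdoor/pasture-fed replicate 5 and −0.0043 in the next animal. In indoor/concentrate-fed replicate 3 it was −0.17, and −0.051 in the next. Replicate 5 outdoors was lowest in 2 of the 6 genes and highest in 1, and replicate 3 indoors was lowest in 3. No marker reads as a true zero on this scale. Whether the tissue pieces held different amounts of connective tissue was not tested, and in whole muscle a change in the number of cells of a type and a change in RNA per cell cannot be told apart.

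**Figure D2:**
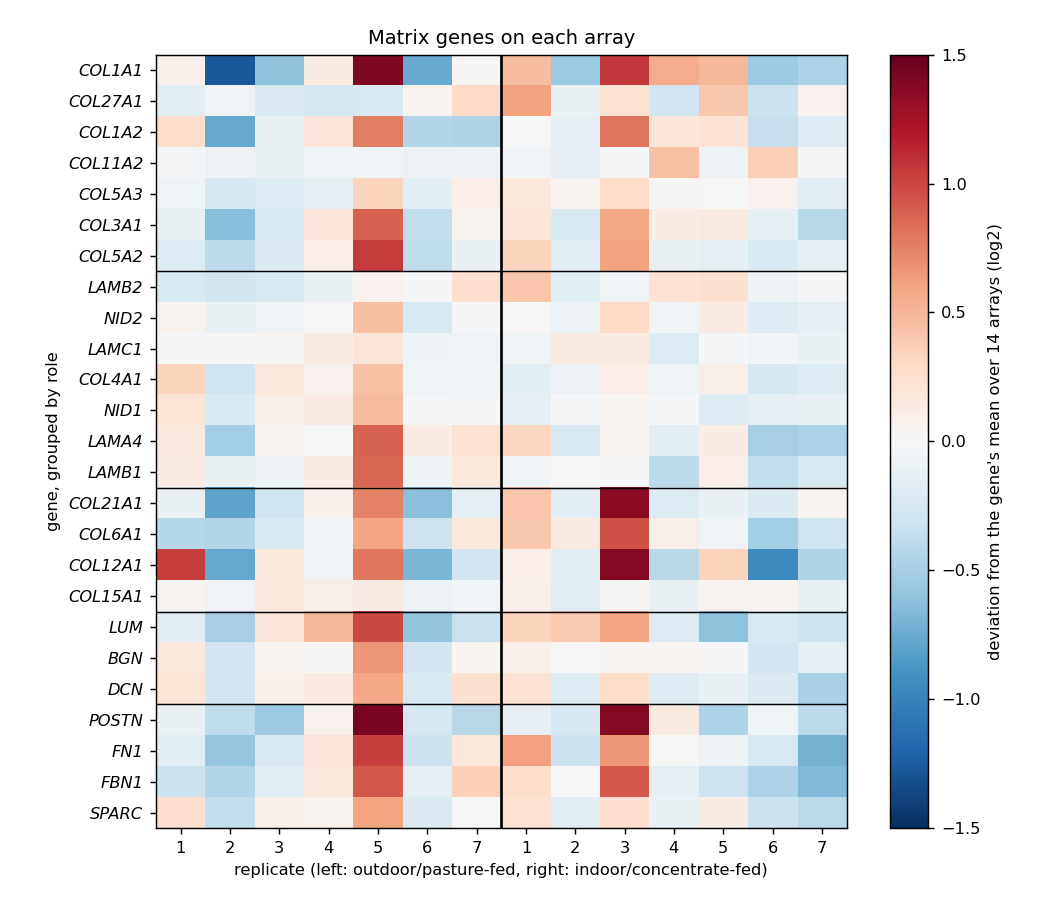
Deviation of each of the 25 varying matrix genes (rows, grouped by role) from its mean over the 14 arrays (columns, outdoor/pasture-fed left, indoor/concentrate-fed right), in log2 units by colour. Replicate 5 outdoors and replicate 3 indoors are red over most genes, and outdoor/pasture-fed replicate 2 is blue over most.

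The fibrillar collagens were lower outdoors in 7 of the 7 varying genes, where 52.5% of all varying probe sets were lower, with a median difference of −0.14. None passed the test. The median is the value of *COL11A2*, whose mean level of 6.30 lay under the array medians of 6.77 to 6.84 and near the flat *COL2A1* at 6.28. *COL27A1*, at a mean of 6.71, also lay under the array medians. The 7 fibrillar genes are not separate observations, so the count is not one of independent signs. In the pairs among them that were computed, Pearson r between animals was 0.89 to 0.96 with group means removed. *COL1A1*, the alpha 1 chain of type I collagen and the main component of the fibrils of perimysium, had values of 9.58, 10.86 and 12.24 (lowest, median and highest) outdoors and 10.28, 11.31 and 11.90 indoors. The groups overlapped, since 3 outdoor animals lay under every indoor animal but replicate 5 lay above all of them. The means were 10.70 ± 0.85 (SD, n = 7) and 10.98 ± 0.65 (SD, n = 7). The difference was −0.28 with an SE of 0.40, a fold of 1.22 downwards, and its 95% interval ran from −1.16 to 0.59. Without outdoor/pasture-fed replicate 5 the difference was −0.54, and without outdoor/pasture-fed replicate 2 it was −0.10.

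*COL1A2*, the second chain of the type I trimer, ran from 10.54 through a median of 11.18 to 12.06 outdoors and from 10.95 through 11.30 to 12.09 indoors. The outdoor animals again held 3 values under all indoor values, with wide overlap above. Its difference of −0.16 (SE 0.24) had an interval from −0.68 to 0.37, and its second varying probe set was lower as well, at −0.04. *COL3A1*, the single chain of type III collagen, ran from 11.45 through 11.98 to 12.97 outdoors and from 11.67 through 12.20 to 12.67 indoors. The extremes of the whole set were both outdoor animals, replicate 2 at the bottom and replicate 5 at the top. The difference was −0.06 (SE 0.22) with an interval from −0.54 to 0.42, and it turned to 0.04 without outdoor/pasture-fed replicate 2.

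Of the minor fibrillar collagens, *COL5A3*, *COL11A2* and *COL27A1* had narrower intervals than the type I and type III chains. *COL5A3*, a chain of the type V collagen that sets fibril width, ran from 6.86 through 6.99 to 7.45 outdoors and from 6.97 through 7.15 to 7.40 indoors. There were 3 outdoor animals below all indoor animals and 1 above them. The difference was −0.11 (SE 0.09, interval −0.31 to 0.09). *COL11A2*, a chain of type XI collagen best known from cartilage, stayed between 6.18 and 6.28 in all outdoor animals. Indoors it ran from 6.17 through 6.27 to 6.74, and the width came from replicates 4 and 6. Its difference was −0.14 (SE 0.09, interval −0.33 to 0.05).

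*COL27A1*, a fibrillar collagen also best known from cartilage, ran from 6.45 through 6.55 to 7.001 outdoors and from 6.39 through 6.77 to 7.31 indoors. All outdoor values lay inside the indoor range, and 6 of 7 lay under the indoor median. The difference was −0.17 (SE 0.15, interval −0.49 to 0.16). *COL5A2*, the remaining type V chain, differed by −0.04. The count of lower fibrillar collagens dropped to 5 of 7 without indoor/concentrate-fed replicate 3 and also without outdoor/pasture-fed replicate 2, and to 6 of 7 without indoor/concentrate-fed replicate 1 or outdoor/pasture-fed replicate 6. It was 7 of 7 with both high animals left out, at a median of −0.14.

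**Figure D3:**
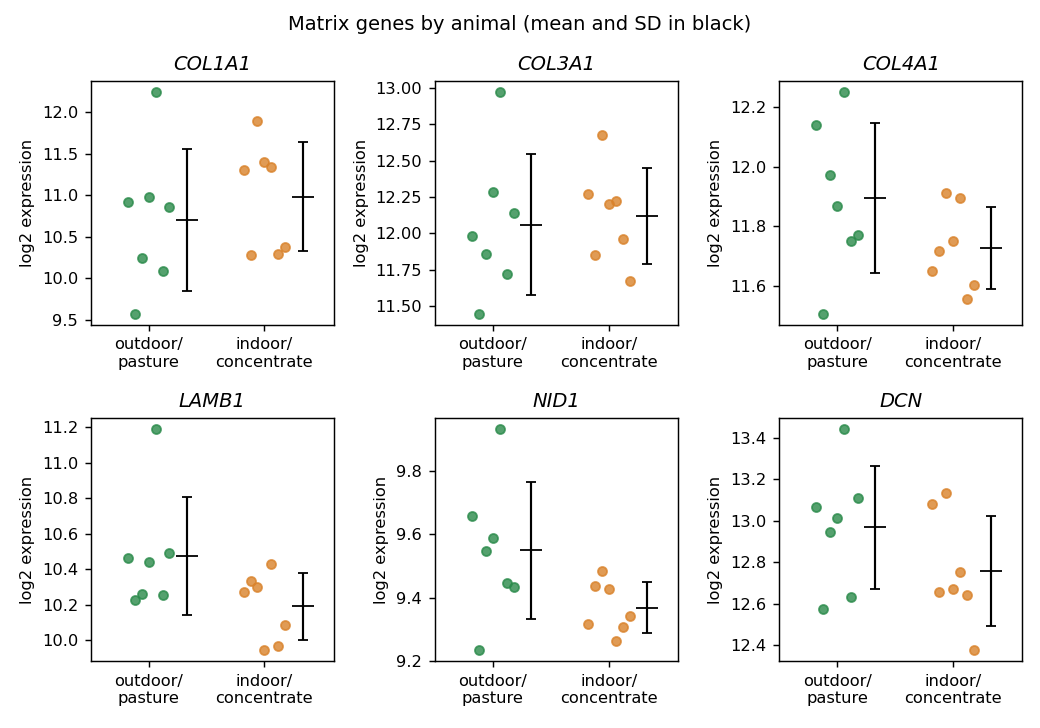
Log2 expression (y axes, not starting at 0) of *COL1A1*, *COL3A1*, *COL4A1*, *LAMB1*, *NID1* and *DCN* in each heifer (points, x axis by production system), with the group mean and SD in black. The groups overlap in every panel, and 1 outdoor/pasture-fed animal, replicate 5, is the highest point of all in each.

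The basement membrane genes were higher outdoors in 6 of 7 varying genes, where 47.5% of all varying probe sets were higher, with a median difference of 0.17, and none passed the test. Here too the genes are not separate observations. With group means removed, Pearson r was 0.69 for *COL4A1* with *LAMB1* and 0.65 for *LAMB1* with *LAMC1*. *NID1*, which encodes nidogen 1, a linker of laminin to type IV collagen, had values of 9.23, 9.55 and 9.93 (lowest, median and highest) outdoors and 9.26, 9.34 and 9.48 indoors. Of the outdoor animals 4 lay above every indoor animal and 1, replicate 2, below every one. The means were 9.55 ± 0.22 (SD, n = 7) outdoors and 9.37 ± 0.08 (SD, n = 7) indoors. The difference was 0.18 with an SE of 0.09 and an interval from −0.01 to 0.37, and the two-sided exact permutation test over 3432 assignments of the arrays gave p = 0.0519.

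*LAMB1*, the beta 1 chain of laminin, ran from 10.22 through a median of 10.44 to 11.19 outdoors and from 9.94 through 10.27 to 10.43 indoors. Of the outdoor animals 4 lay above all indoor animals and none lay below them, but the groups overlapped between 10.22 and 10.43. The difference of 0.28 (SE 0.14, interval −0.03 to 0.60) was the highest among the matrix genes, at p = 0.0524 in the exact permutation test, and was 0.16 without outdoor/pasture-fed replicate 5. *COL4A1*, the chain that with *COL4A2* forms the common type IV collagen network, ran from 11.51 through 11.87 to 12.25 outdoors and from 11.56 through 11.72 to 11.91 indoors. Here 3 outdoor animals lay above all indoor animals and replicate 2 below all of them. Its difference was 0.17 (SE 0.11, interval −0.07 to 0.40), 0.11 without outdoor/pasture-fed replicate 5 and 0.23 without replicate 2.

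*LAMA4*, the laminin alpha chain typical of capillary endothelium, ran from 7.99 through 8.60 to 9.38 outdoors and from 7.99 through 8.33 to 8.82 indoors. The groups covered nearly the same range apart from outdoor/pasture-fed replicate 5, although 6 of 7 outdoor animals were above the indoor median. The difference was 0.26 (SE 0.19, interval −0.16 to 0.68), it was 0.13 without replicate 5, and the second varying probe set of the gene gave 0.26 as well. *LAMB2*, the beta 2 laminin chain that is concentrated at the neuromuscular junction, went the other way. Its values ran from 9.20 through 9.38 to 9.73 outdoors and from 9.29 through 9.45 to 9.90 indoors, with 3 outdoor animals below all indoor animals. The difference was −0.15 (SE 0.11, interval −0.39 to 0.08).

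*LAMC1*, the gamma 1 chain shared by most laminins, differed by 0.05, and of its 5 varying probe sets 2 were higher and 3 lower outdoors, from −0.10 to 0.12. It was the only gene whose probe sets split among the 8 that had several varying ones. *NID2*, the second nidogen, differed by 0.02. The count of higher basement membrane genes dropped to 5 of 7 without outdoor/pasture-fed replicate 5 (median 0.11) and without indoor/concentrate-fed replicate 6, and was 6 of 7 with both high animals left out, at a median of 0.14.

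Endothelial markers, like most basement membrane genes, were higher outdoors by group. Of 11 listed endothelial genes 10 had a probe set and 9 varied, and all 9 were higher outdoors, with an unadjusted p below 0.05 in 8 genes and an adjusted p below 0.05 in none, where 9.23% of varying probe sets were higher with such an unadjusted p. Their differences ran from 0.10 to 0.59 with a median of 0.43. *PECAM1* at 0.54 and *CDH5* at 0.59, both junction proteins of endothelium, were named under no rule set beforehand. The list mean ran from 8.62 to 9.08 outdoors and from 8.11 to 8.67 indoors. From animal to animal the lists differed. Indoor/concentrate-fed replicate 3 had the highest list means of its group for both fibrillar collagens and basement membrane genes, and the lowest endothelial mean. Outdoors the basement membrane mean was highest in replicate 5 and the endothelial mean in replicate 1. The part of the endothelium in the basement membrane differences was not tested.

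Fibrillar collagens and basement membrane genes were then set against each other within each animal, as the mean deviation of the former minus that of the latter. Outdoors this ran from −0.28 through a median of −0.12 to 0.11, and indoors from −0.12 through 0.09 to 0.43. There were 4 outdoor animals below every indoor animal, and 3 indoor animals lay above every outdoor animal. The rest overlapped. The median difference of the fibrillar collagens minus that of the basement membrane genes was −0.31, and it lay between −0.34 and −0.25 with any single animal left out. With all animals in, those medians are the single values of *COL11A2*, a gene of low signal, and of *COL4A1*. No test was made of the gap, since the genes were chosen with results of these data known.

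The 5 arrays with the highest scaling factors in the quality table of the study, 2 outdoor and 3 indoor, were also taken apart. That table names animals by group letter and number, which were read as the replicate numbers of the labels, and the values for these sets rest on that reading. Within these 5 arrays 5 of the 7 fibrillar collagens were higher outdoors, with a median of 0.14. The basement membrane genes had a median of 0.27, so that the gap of medians was −0.12. The per-animal difference of mean deviations, taken over all arrays, had a within-group SD of 0.16. That SD is not an error of the gap of medians, for which none was computed. Within the other 9 arrays all 7 fibrillar collagens were lower, with a median of −0.28, the basement membrane genes split 4 to 3 with a median of 0.07, and the gap was −0.35. The direction of the fibrillar collagens thus differed between the sets. With the set as a block in limma the gap was −0.29, with 7 of 7 lower and 6 of 7 higher.

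**Figure D4:**
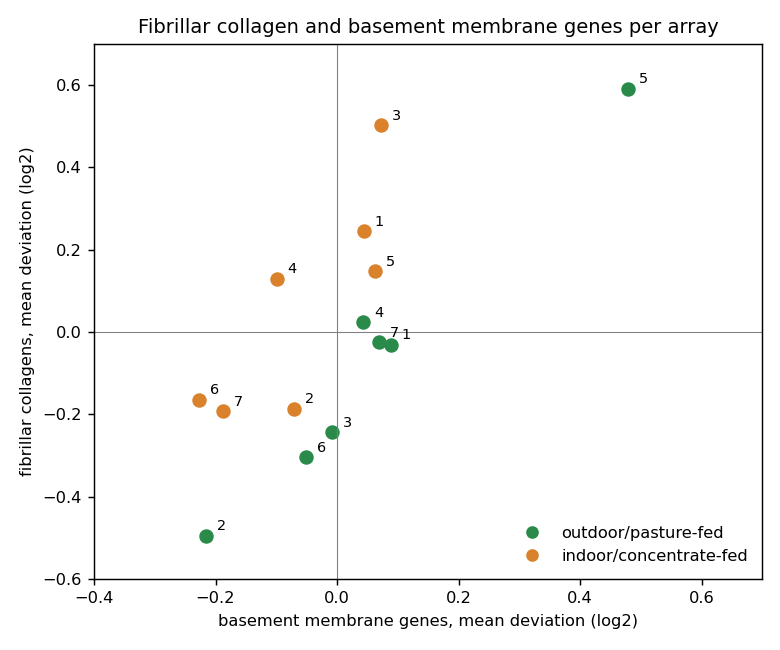
Mean deviation of the 7 varying fibrillar collagens (y axis, log2) against that of the 7 varying basement membrane genes (x axis, log2) in each heifer, numbered by replicate and coloured by production system. Indoor/concentrate-fed animals lie mostly above outdoor/pasture-fed animals of a like basement membrane value, and outdoor/pasture-fed replicate 5 is highest on both axes.

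The fibrillar collagen genes that were paired, *COL1A1*, *COL1A2*, *COL3A1* and *COL5A2*, moved together from animal to animal, within and between proteins. *COL5A3*, *COL11A2* and *COL27A1* were not paired. After the group means were removed, *COL1A1* and *COL1A2* had a Pearson r of 0.89 and a Spearman rho of 0.83 over the 14 arrays (permutation p adjusted over 6 pairs 0.00012 and 0.00024). Without the 2 animals farthest from the median r was 0.79. *COL3A1* and *COL5A2*, which are neighbouring genes in the ARS-UCD2.0 annotation, gave r of 0.91 and rho of 0.86 (adjusted permutation p 9e-05 and 0.0006), and 0.83 without the 2 farthest animals. *COL1A1* and *COL3A1*, chains of different fibrillar collagens, gave r of 0.96 and rho of 0.88 (adjusted permutation p 9e-05 and 0.00024), and 0.92 without the 2 farthest. Within the 9 arrays of lower scaling factor these r were 0.82, 0.95 and 0.96, in the same order.

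The pairs that reach into the basement membrane were looser. *COL1A1* and *COL4A1* gave r of 0.80 and rho of 0.75 (adjusted permutation p 0.00295 and 0.00396), *COL4A1* and *LAMB1* gave 0.69 and 0.65 (adjusted permutation p 0.0127 and 0.0170), and *LAMB1* and *LAMC1* gave 0.65 and 0.59 (adjusted permutation p 0.0115 and 0.0354). Without the 2 animals farthest from the median these r fell to 0.59 (permutation p 0.0535), 0.43 (p 0.148) and 0.59 (p 0.0764), so the first pair of relations weakened without those animals, while the last kept most of its size and missed the threshold with 12 animals. Within the 9 arrays they were 0.64, 0.49 and 0.29. Of 8 planned pairs 6 were computed, and those with *COL4A2* and *COL6A2* could not be.

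The other collagens split, with 2 of the 4 varying genes higher and 2 lower. *COL21A1*, a collagen that associates with fibrils, ran from 6.42 through 7.07 to 7.95 outdoors and from 6.99 through 7.11 to 8.55 indoors. Indoor/concentrate-fed replicate 3 lay far above the rest of its group, and 3 outdoor animals lay below all indoor ones. The difference was −0.32 (SE 0.28, interval −0.94 to 0.29), the lowest of the matrix genes, and was −0.13 without that animal. *COL6A1*, a chain of the type VI collagen that links fibres to their surroundings, ran from 8.88 through 9.09 to 9.91 outdoors, within the indoor span of 8.80 through 9.41 to 10.27. Its 3 varying probe sets were all lower, from −0.20 to −0.08, and the difference of −0.20 had an SE of 0.23 and an interval from −0.70 to 0.29.

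*COL12A1*, a fibril-associated collagen of tendon and perimysium, was among the most variable genes, with 6.73, 7.44 and 8.52 (lowest, median and highest) outdoors and 6.54, 7.33 and 8.87 indoors. The groups covered each other almost wholly. Its difference of 0.05 had an SE of 0.38, an interval from −0.77 to 0.88, and a sign that changed with single animals, from −0.11 without outdoor/pasture-fed replicate 1 to 0.29 without indoor/concentrate-fed replicate 3. *COL15A1*, a collagen of basement membrane zones around capillaries and fibres, was the steadiest, at 10.90, 11.02 and 11.14 outdoors and 10.80, 11.002 and 11.06 indoors. Of the outdoor animals 3 lay above all indoor animals. The difference was 0.06 (SE 0.05), and the interval from −0.05 to 0.17 was the narrowest among these genes.

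The small leucine-rich proteoglycans were higher outdoors in 3 of 3 genes, within the error of each. *DCN*, decorin, which binds collagen fibrils and transforming growth factor beta, had 12.58, 13.02 and 13.44 (lowest, median and highest) outdoors and 12.38, 12.67 and 13.13 indoors. Of the outdoor animals 5 lay above the indoor median, and replicate 5 alone lay above all indoor animals. The means were 12.97 ± 0.30 and 12.76 ± 0.26 (SD, n = 7 each), and the difference was 0.21 (SE 0.15, interval −0.11 to 0.53). *LUM*, lumican, the gene beside *DCN* in the annotation, ran from 9.86 through 10.28 to 11.44 outdoors and from 9.84 through 10.24 to 11.04 indoors, with a difference of 0.02 (interval −0.58 to 0.61). *BGN*, biglycan, ran from 5.86 through 6.18 to 6.81 outdoors and from 5.87 through 6.15 to 6.23 indoors. Its difference of 0.10 (interval −0.18 to 0.38) rested on outdoor/pasture-fed replicate 5, without which it was −0.0061.

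Of the glycoproteins, 3 of 4 were higher outdoors, by 0.12 at most. *SPARC*, a collagen-binding protein of growing and remodelling matrix, ran from 11.45 through 11.87 to 12.42 outdoors and from 11.42 through 11.72 to 12.07 indoors, and differed by 0.12 (interval −0.22 to 0.45). *FBN1*, fibrillin of the elastic microfibrils, ran from 11.07 through 11.36 to 12.42 outdoors and from 10.84 through 11.36 to 12.42 indoors. *FN1*, fibronectin, ran from 9.98 through 10.40 to 11.59 outdoors and from 9.85 through 10.49 to 11.22 indoors. The medians of these genes lay closer together than the animals of a group did, and the differences were 0.11 for *FBN1* (interval −0.46 to 0.68) and 0.03 for *FN1* (interval −0.56 to 0.62).

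*POSTN*, periostin, a protein of healing and fibrotic matrix, held 1 high animal in each group. Outdoor/pasture-fed replicate 5 had 7.61 and the next outdoor animal 6.24, and indoor/concentrate-fed replicate 3 had 7.56 and the next indoor animal 6.31. The lowest and median values were 5.63 and 5.92 outdoors and 5.71 and 6.05 indoors. The groups overlapped fully, and the difference of −0.06 had an interval from −0.81 to 0.69.

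Genes that make, cut and regulate the matrix were read from 4 lists beside the structural genes. None of their genes passed the adjusted threshold. The 2 genes described in each list are those with the lowest p in limma, so their p-values come from genes picked by p. In the list for collagen synthesis and cross-linking 23 of 36 genes had a probe set and 16 varied, of which 10 were lower and 6 higher outdoors, with a median of −0.09. At an unadjusted p under 0.05 there were 3 genes lower and none higher, where 10.7% of varying probe sets were lower at that p. The lower genes numbered 5 without indoor/concentrate-fed replicate 5, 7 within the 9 arrays of lower scaling factor and 1 within the other 5. The share of all probe sets was not counted in these refits, so their counts cannot be read as high or low. *SERPINH1*, the chaperone of procollagen in the endoplasmic reticulum, had 7.99, 8.10 and 8.54 (lowest, median and highest) outdoors and 8.28, 8.52 and 8.84 indoors. All outdoor animals but replicate 5 lay below every indoor animal.

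The difference of *SERPINH1* was −0.38 (SE 0.10, interval −0.61 to −0.15), with an exact permutation p of 0.00699 and an adjusted p of 0.23 in limma. *P4HA2*, a catalytic subunit of the prolyl hydroxylase that stabilises the collagen triple helix, had 8.20, 8.47 and 8.90 outdoors and 8.62, 9.25 and 9.67 indoors. Here 5 outdoor animals lay below all indoor animals. The difference was −0.65 (SE 0.18, interval −1.05 to −0.25), a fold of 1.56 downwards, with an exact permutation p of 0.00699 and an adjusted p of 0.24 in limma. The other gene lower at an unadjusted p under 0.05 in limma was *LOXL4*, of the lysyl oxidase family, at −0.21. Its adjusted p was 0.42 in limma, and its exact permutation p of 0.0513 was over 0.05. *LOX*, the main cross-linking enzyme, differed by 0.04. *LOXL4* and *LOX* were chosen for mention after their values were seen.

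**Figure D5:**
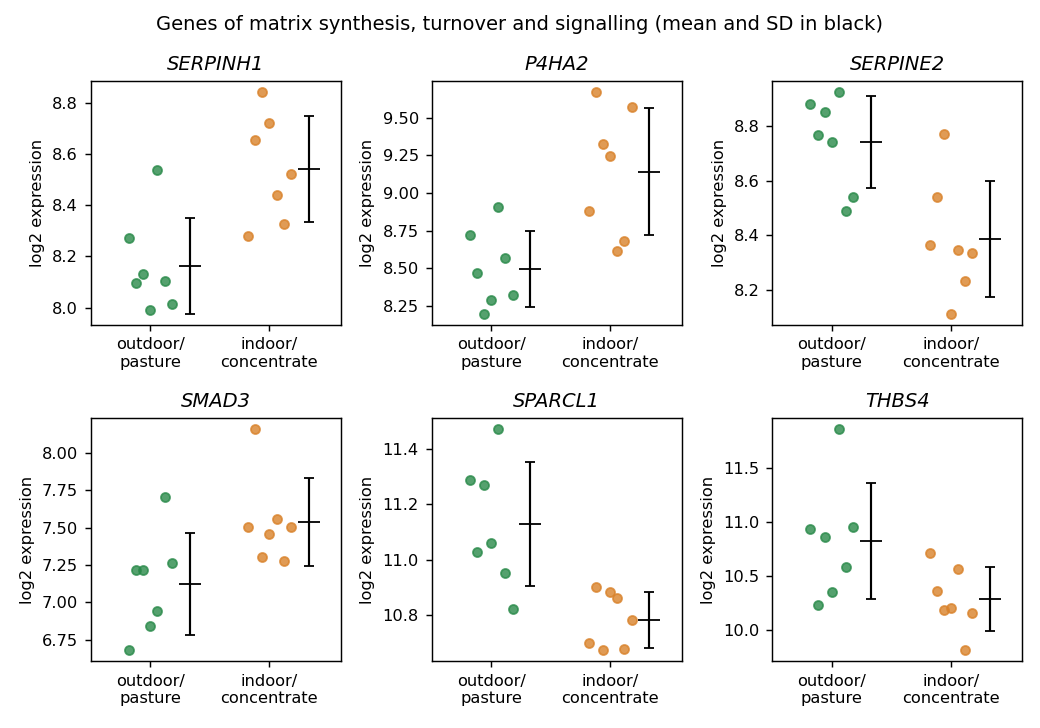
Log2 expression (y axes, not starting at 0) of *SERPINH1*, *P4HA2*, *SERPINE2*, *SMAD3*, *SPARCL1* and *THBS4* in each heifer (points, x axis by production system), with the group mean and SD in black. *SERPINH1*, *P4HA2* and *SMAD3* are lower and the other genes higher in outdoor/pasture-fed animals, with overlap in every panel and none past the adjusted threshold.

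Of the matrix proteases and inhibitors 25 of 32 had a probe set and 16 varied, with 10 higher and 6 lower outdoors and a median of 0.04. A single gene of the 16 lay at an unadjusted p under 0.05, beside 9.23% of varying probe sets higher at that p. Without outdoor/pasture-fed replicate 7 or indoor/concentrate-fed replicate 3 or 5 there were 2, with no share counted for those refits. The single gene was *SERPINE2*, protease nexin 1, an inhibitor of thrombin and plasminogen activators. It ran from 8.49 through 8.76 to 8.92 outdoors and from 8.11 through 8.35 to 8.77 indoors, with 3 outdoor animals above all indoor ones. Its difference was 0.35 (SE 0.10, interval 0.13 to 0.57, adjusted p of 0.24 in limma). *ADAM10*, a membrane protease that sheds surface proteins, ran from 10.11 through 10.21 to 10.38 outdoors and from 10.07 through 10.16 to 10.24 indoors and differed by 0.08 (interval −0.01 to 0.16).

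The list for transforming growth factor beta and other signals that induce matrix held 17 of 26 genes with a probe set and 8 that varied, 4 in each direction. At an unadjusted p under 0.05 there was 1 gene lower of the 8, near the 10.7% of varying probe sets lower at that p. *SMAD3*, the transcription factor that carries this signal to collagen genes, had 6.68, 7.21 and 7.71 outdoors and 7.28, 7.50 and 8.16 indoors. As many as 6 outdoor animals lay below all indoor animals, and the highest indoor value belonged to replicate 2. The difference was −0.42 (SE 0.17, interval −0.78 to −0.05, adjusted p of 0.37 in limma), and −0.31 without that animal. No gene of the list lay at an unadjusted p under 0.05 without that animal or without outdoor/pasture-fed replicate 1, 4 or 5, with no share counted for those refits. *TGFB3*, a ligand of the pathway, ran from 6.15 through 6.48 to 6.77 outdoors and from 6.26 through 6.53 to 6.81 indoors and differed by −0.10 (interval −0.36 to 0.16).

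Of the other matrix proteins 35 of 49 had a probe set and 23 varied, with 18 higher and 5 lower outdoors, a median of 0.18, and 2 genes higher at an unadjusted p under 0.05, a share near the 9.23% of varying probe sets that were higher at that p. *SPARCL1*, a relative of *SPARC* that is abundant around vessels, ran from 10.82 through 11.06 to 11.47 outdoors and from 10.67 through 10.78 to 10.90 indoors. All outdoor animals but 1 lay above every indoor animal. Its difference of 0.34 (SE 0.09, interval 0.14 to 0.55) had an exact permutation p of 0.00291 and an adjusted p of 0.22 in limma. *THBS4*, a thrombospondin of muscle and tendon, ran from 10.23 through 10.86 to 11.86 outdoors and from 9.81 through 10.20 to 10.71 indoors, with 4 outdoor animals above all indoor ones. Its difference was 0.54 (SE 0.23, interval 0.04 to 1.04, adjusted p of 0.40 in limma). The count of higher genes at that unadjusted p was 4 without outdoor/pasture-fed replicate 2, and only 1 when outdoor animal 1, 3 or 7 was left out or without indoor/concentrate-fed replicate 3, 4, 6 or 7. No share of all probe sets was counted beside these. *HSPG2*, perlecan, the large proteoglycan of basement membranes, was chosen for mention after its value was seen, and differed by 0.04.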

How the data were processed

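The deposited table holds log2 values of 14 Affymetrix Bovine arrays, which the authors quantile normalised and summarised with FARMS, a factor analysis of the probes of a set. The log2 scale and the lack of gene centring were checked on the values (array medians 6.77 to 6.84). The authors' filter for informative probe sets needs probe-level data and was not repeated, so all 24016 bovine probe sets were tested, without 112 control sets. Varying probe sets (SD above 0.01, 9623) were an alternative. The comparison of groups used limma 3.58.1 under R 4.3.3 (lmFit, eBayes; 0.214 prior degrees of freedom), and the fit was tested on simulated data. Depth has no meaning for arrays, and their number limits precision.

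The matrix genes, role groups and gene lists were chosen with earlier results of these data known. Named were *COL1A1*, *COL1A2*, *COL3A1*, *COL4A1*, *COL4A2*, *FN1*, *DCN* and *SPARC*, the 4 varying genes with the lowest p in each role group, and the 2 genes with the lowest p in each pathway list. Of 13292 probe sets with 1 symbol, 13263 matched RefSeq, 86 had several symbols and 10638 none. The deviation of a list is the mean over its varying genes of the value minus the gene's mean over the arrays. Pairs used 100000 two-sided permutations within groups, where the smallest possible p is 1e-05. Alternatives were robust and trended priors, a replicate block, filters, renewed normalisation, array weights, other probe sets, the array quality set and each array left out. Leaving out both high animals and fitting within the quality sets were chosen after seeing the data.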

Additional observations from a re-analysis of the deposited data

Results flagged for a closer look

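In each group of 7 animals the highest and the lowest value of each varying matrix gene and each named pathway gene were compared with the nearest other value, and the gap was set against the range. Of 66 such groups 5 had an animal past Dixon's 95% critical value, where chance gives about 1 in 20. Outdoor/pasture-fed replicate 5 was high in *LAMB1* (11.19, next animal 10.49) and in *POSTN* (7.61, next 6.24). Indoor/concentrate-fed replicate 3 was high in *COL21A1* (8.55, next 7.62) and in *POSTN* (7.56, next 6.31). In *SMAD3* indoor/concentrate-fed replicate 2 was high (8.16, next 7.56).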

How the results depend on the processing

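No matrix gene passed the adjusted threshold under any of the alternatives run. At an unadjusted p under 0.05 the count of 0 among the 25 varying genes became 1 (*NID1*) after renewed quantile normalisation, 2 (*LAMB1*, *NID1*) after centring on array medians and 3 (*LAMB2*, *NID1*, *COL5A3*) with array weights, and ran from 0 to 2 with 1 animal left out. It was 2 (*COL4A1*, *NID1*) without outdoor/pasture-fed replicate 2 and 1 (*COL5A3*) without replicate 5. The share of all probe sets at that p was not counted under these alternatives, so the counts have none beside them. The replicate numbers did not pair the animals, since same-numbered arrays correlated at −0.18 to 0.24 and 3 of 14 correlated best with their own number, and the replicate block gave a count of 1 (*LAMB1*). Fibrillar minus basement membrane was −0.12 within the 5 arrays of high scaling factor. With the probe set of highest SD the pairs *LAMB1* with *LAMC1* (r 0.60, adjusted permutation p 0.0603) and *COL4A1* with *LAMB1* (r 0.62, p 0.0644) no longer passed.

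Signs of differences that had not passed a test changed in 12 of 30 named genes. Within the 5 arrays these were *COL1A1* 0.16, *COL1A2* 0.14, *COL3A1* 0.22, *COL5A3* 0.060, *COL21A1* 0.23, *COL6A1* 0.30 and *POSTN* 0.71. Within the other 9 they were *FN1* −0.18, *COL12A1* −0.20, *LUM* −0.32 and *FBN1* −0.21. *FN1* was −0.12 with array weights, *LUM* −0.014 with the quality block, and with both high animals left out *FN1* was −0.031 and *LUM* −0.048. With 1 animal left out the ranges were −0.21 to 0.040 for *COL3A1*, −0.14 to 0.14 for *FN1*, −0.11 to 0.29 for *COL12A1*, −0.0061 to 0.15 for *BGN*, −0.15 to 0.12 for *LUM*, −0.032 to 0.27 for *FBN1* and −0.30 to 0.16 for *POSTN*. The cause was not tested. Counts of pathway genes at an unadjusted p under 0.05 also moved, and for collagen synthesis the lower genes numbered 7 within the 9 arrays, 1 within the 5, and 2 to 5 with 1 animal left out. These counts too have no share of all probe sets beside them. With 7 arrays a group, intervals as wide as that of *COL1A1* leave changes of 1.5-fold in either direction within the error.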

Other observations

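Markers of other cells in the muscle gave these values beside the matrix genes. Of the 7 varying smooth muscle and pericyte genes 5 were higher and 2 lower outdoors, from −0.18 to 0.70 with a median of 0.15. Of the higher genes 2 lay at an unadjusted p under 0.05, beside 9.23% of varying probe sets higher at that p. *RGS5*, a pericyte gene, stood at 0.70 and was named under no rule set beforehand. All 6 varying adipocyte genes were lower outdoors, from −0.39 to −0.07, and none lay under that p. The mean deviation of the adipocyte list was 1.09 in indoor/concentrate-fed replicate 1 and at most 0.39 in the other indoor animals. All 6 varying leukocyte genes were higher outdoors, with a median of 0.13, and again none lay under that p. No gene of these lists passed the adjusted threshold.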
